A study of Mus musculus with 79 samples.

Results

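Wild-type mouse embryonic stem (ES) cells at day 0 were compared with embryoid bodies at day 2 (EB D2) in the lines TET_WT and DNMT_WT. The comparison used 11 of the 79 RNA-seq libraries of the series, chosen by the genotype, cell type and time in their labels: 3 TET_WT and 2 DNMT_WT libraries of ES cells, and 3 libraries of each line at EB D2. The ES cells (ESC D0) were kept in 2i/LIF, and embryoid bodies are aggregates formed from ES cells. The labels give no medium for the aggregates. They do not say whether the aggregates and the ES cells of a line came from the same culture. TET_WT is the unedited parental line of a triple knockout of Tet1, Tet2 and Tet3, and DNMT_WT that of a triple knockout of Dnmt1, Dnmt3a and Dnmt3b. Each is 1 line, the labels name no strain, and they do not say whether replicates were separate cultures, so the p-values measure only the spread between these libraries. The series follows the 4 lines over ES cells, epiblast-like cells (EpiLC) at days 1 and 2, and embryoid bodies at days 2, 4, 6 and 8.

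In 2i/LIF, one inhibitor blocks MEK and thereby ERK signalling, another blocks GSK3 and thereby stabilises beta-catenin, and LIF activates STAT3. Together they hold mouse ES cells in the naive state of the preimplantation epiblast, with a genome of low DNA methylation. On release, the naive transcription factors are lost and the cells pass through a formative state, like that of the epiblast just after implantation, before they take up germ layer fates.

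Levels are given in RPKM, read counts scaled to gene length and library depth, and differences as log2 changes (EB D2 minus ESC D0) of log2(RPKM + 0.5), a scale that understates the change of low genes. A gene was called where its change was 1 or more on the log2 scale, in either direction, with limma's adjusted p below 0.05; "rose" and "fell" are used of such genes only. "In each line" means that the gene passed in the fit of both lines with line as covariate and in TET_WT and DNMT_WT taken singly. Of 35230 genes, 15267 with at least 1 RPKM in 2 of the 79 libraries were tested. The 11 libraries held 10.1 to 12.7 M reads each. A gene without a read stands in the deposited table at the value of 0.9 reads, so the smallest RPKM values below mean no read or a single read.

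TET_WT EB D2 replicate 1 stood apart. The ribosomal-repeat transcript Gm42418 took 2.12% of its reads, against 0.0675% to 0.198% in the other 10 libraries. Mitochondrially encoded genes took 1.68% of its reads and 0.939% and 1.46% in the other TET_WT EB D2 libraries, against 0.355% to 0.387% in TET_WT ES cells, 0.675% and 0.819% in DNMT_WT ES cells and 0.914% to 0.976% in DNMT_WT EB D2. Without that library 768 genes rose and 728 fell in each line, against 758 and 742 with it. The marker check matched the labels in all 11 libraries: Nanog was at 436 to 474 RPKM in the ES cells and Fgf5 at 18.2 to 36.8 RPKM at EB D2, without a read in any of the 5 ES cell libraries.

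Chromosome 1 stood apart in DNMT_WT at ESC D0, a pattern examined after the data were seen. The median of 440 chromosome 1 genes with a mean of at least 3 RPKM, taken relative to TET_WT of the same condition and to the other chromosomes, was higher by 0.515 and 0.521 in the DNMT_WT ES cell libraries (log2 scale). It was also raised in DNMT_WT EpiLC, at 0.388 to 0.446, and lay between -0.0224 and -0.00675 in the 3 DNMT_WT EB D2 libraries. The DNMT_KO libraries gave 0.524 to 0.536 at ESC D0 and -0.079 to -0.0413 at EB D2. Over the 841 chromosome 1 genes tested, the median log2 change to EB D2 was -0.38 in DNMT_WT and 0.00 in TET_WT, against 0.06 and 0.00 on the other chromosomes. Without chromosome 1, 726 genes rose and 690 fell in each line. The series does not say whether the DNMT_WT ES cells and embryoid bodies share a culture. The part of differing cell populations in the DNMT_WT changes, on any chromosome, was not tested. The part of this shift in the change of any single chromosome 1 gene was not tested; of the genes described below, Tfcp2l1, Prdm14, Nr5a2, Gbx2, Lefty1, Lefty2, Fn1, Slc30a1, Mael, Ddr2, Sox17, Mixl1 and Col3a1 lie there.

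With line as covariate, 1172 genes rose (7.68% of those tested) and 1142 fell (7.48%). In each line, 758 genes rose (4.96%) and 742 fell (4.86%). Taken singly, TET_WT gave 1202 higher and 1114 lower genes, and DNMT_WT 1521 and 1495. Of the 1500 genes called in each line, 1497 had no overlap between the ES cell and EB D2 libraries in either line. The call already required a large change over a small spread in these same libraries, so this adds no support. The share without overlap over all genes tested was not counted. A further 814 genes passed with line as covariate but not in each line, and 799 of them had the same sign in both. That call already required a large change over both lines together, so the shared sign adds no support. The share with the same sign over all genes tested was not counted. The median change over all genes tested was 0.01. In these bulk libraries, fewer cells of a type and less RNA per cell cannot be told apart.

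**Figure D1:**
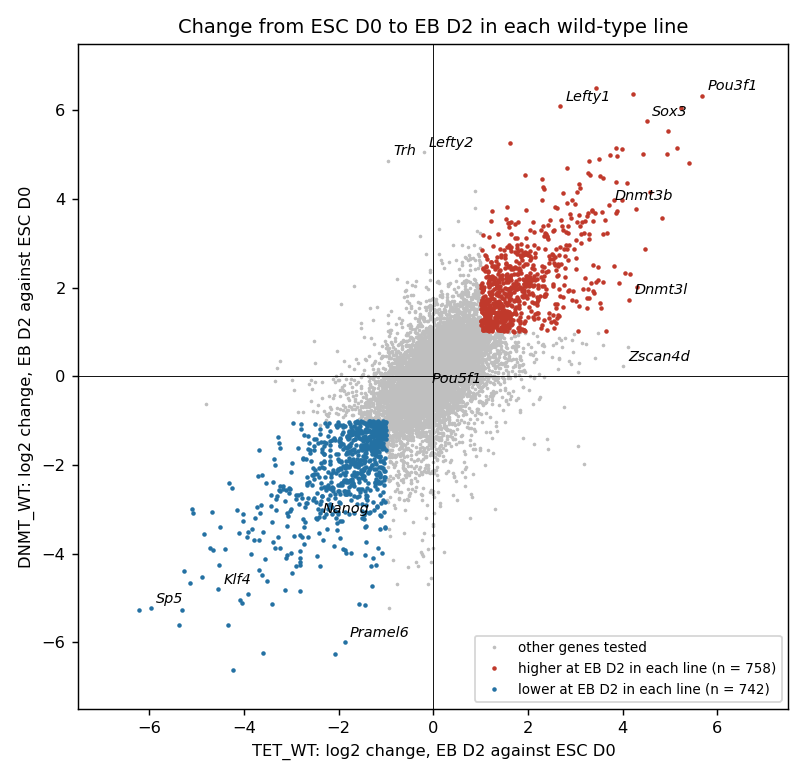
Log2 change from ESC D0 to EB D2 in TET_WT (horizontal axis) and DNMT_WT (vertical axis) for each of the 15267 genes tested; red points are the 758 genes that rose and blue points the 742 genes that fell in each line, grey points the rest. Pou3f1 and Sox3 lie at the upper right and Klf4 and Sp5 at the lower left, near the diagonal, while Lefty2 and Trh lie high on the vertical axis near 0 or below on the horizontal one.

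The naive pluripotency network fell. Of 20 listed genes, all tested, 16 fell with line as covariate and 15 in each line, and none rose; their median log2 change was -2.09 (-1.85 in TET_WT and -2.52 in DNMT_WT). Klf4, a Krüppel-like factor of the naive network (ENSMUSG00000003032, chr4:55527143-55532466), stood at 154, 153 and 154 RPKM in TET_WT and 76.0 and 78.9 in DNMT_WT ES cells. It was at 6.01, 5.43 and 6.97 RPKM in TET_WT and 2.42, 2.51 and 2.01 in DNMT_WT at EB D2. Every embryoid body library was thus far below every ES cell library, with a log2 change of -4.66 (SE 0.08, adjusted p = 2.7e-11). Tfcp2l1, a transcription factor of the same network (ENSMUSG00000026380, chr1:118627945-118685168), went from 150.0, 152 and 143 to 6.09, 7.63 and 6.97 RPKM in TET_WT. In DNMT_WT it went from 180.3 and 169.9 to 3.62, 2.85 and 2.83 RPKM, and its log2 change was -4.90 (SE 0.21, adjusted p = 1.3e-08).

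Nanog (ENSMUSG00000012396, chr6:122707489-122714633), the homeodomain factor that sustains self-renewal, also fell. It was at 474, 461 and 466 RPKM in TET_WT and 436 and 471 in DNMT_WT ES cells, and at 79.3, 89.0 and 84.7 RPKM in TET_WT and 51.5, 47.8 and 46.0 in DNMT_WT at EB D2, a log2 change of -2.80 (SE 0.12, adjusted p = 1.7e-08). Each EB D2 library was below every ES cell library, and the TET_WT ones stood above the DNMT_WT ones. Esrrb, an orphan nuclear receptor (ENSMUSG00000021255, chr12:86361117-86521628), went from 124, 122 and 125 to 33.2, 35.3 and 33.7 RPKM in TET_WT and from 83.0 and 85.9 to 17.5, 15.2 and 16.04 in DNMT_WT (log2 change -2.07, SE 0.09, adjusted p = 1.3e-08). Tbx3, a T-box repressor, fell by 3.63 on the log2 scale, Prdm14, which restrains FGF signalling and DNA methylation, by 3.08, and Zfp42 (Rex1), the common naive reporter gene, by 1.82.

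Several of these falls differed in size between the lines. For 8 of the 20 genes the DNMT_WT change lay below the TET_WT change by the test of the difference, and for none above it. Of all 15267 genes tested, 11.2% differed in either direction, and for 914 the DNMT_WT change lay below. Of these 8, Klf2, Tfcp2l1, Tbx3, Zfp42, Nr5a2 and Tcl1 fell, and Fgf4 and Gbx2 were not called. Tfcp2l1, Nr5a2 and Gbx2 lie on chromosome 1, where the median log2 change was -0.38 in DNMT_WT and 0.00 in TET_WT. The part of that shift in the count was not tested. Zfp42 was at 216 to 223 RPKM in TET_WT and 303 to 309.8 in DNMT_WT ES cells, and at 94.2 to 108 and 44.3 to 52.5 RPKM at EB D2, and the changes (TET_WT minus DNMT_WT, as for each difference below) differed by 1.56 (SE 0.096, adjusted p = 5.7e-07). At ESC D0 the median level of the list in TET_WT was -0.19 relative to DNMT_WT on the log2 scale, and at EB D2 it was 0.88, with 17 of 20 genes higher in TET_WT. The other 4 members did not pass with line as covariate. Fgf4, an ERK-activating growth factor made by the epiblast, was at 39.0 to 76.2 RPKM in the ES cells and 53.1 to 61.8 at EB D2. The nuclear receptor gene Nr0b1 had a log2 change of 0.43, the RNA-binding protein gene Dppa5a 0.44 and the homeobox gene Gbx2 -0.18.

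Core factors shared by naive and later pluripotent cells were not called, while other genes of the general pluripotency list rose. Pou5f1, which encodes OCT4 (ENSMUSG00000024406, chr17:35506018-35510772), was at 463, 458 and 458 RPKM in TET_WT and 487 and 497 in DNMT_WT ES cells, and at 389, 433 and 421 RPKM in TET_WT and 424, 388 and 404 in DNMT_WT at EB D2. The embryoid body libraries were lower in both lines, but the log2 change of -0.21 (SE 0.04, adjusted p = 0.0011) was below the size required for a call. Sox2, its partner, had a log2 change of -0.35 (SE 0.04, adjusted p = 4.9e-05), and Sall4, a zinc finger factor of the same circuit, -0.16. Of the 11 genes of this list 5 rose with line as covariate, 3 of them in each line, and none fell. Utf1, a chromatin-bound factor of pluripotent cells, was at 22.4 to 29.3 RPKM in the ES cells and at 238 to 278 at EB D2 (log2 change 3.33, SE 0.07, adjusted p = 7.2e-11). Dppa4 rose by 1.49 and Tdgf1, a Nodal co-receptor, by 1.49 in each line. The microRNA-regulating Lin28a rose with line as covariate (log2 change 1.54, SE 0.27, adjusted p = 0.00063), with log2 changes of 0.76 in TET_WT and 2.51 in DNMT_WT. Dppa2 was the fifth, with a log2 change of 1.79 in TET_WT and 0.78 in DNMT_WT.

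Genes of formative and primed pluripotency rose together. Of 19 listed genes, 16 rose in each line and none fell, and the median log2 change was 3.41. Fgf5, a growth factor gene of the postimplantation epiblast (ENSMUSG00000029337, chr5:98254184-98277030), had no read in the ES cells of either line and stood at 19.5, 20.7 and 18.2 RPKM in TET_WT and 33.1, 34.4 and 36.8 in DNMT_WT at EB D2. Against a floor of 3 reads per ES cell library it was at least 163-fold higher in TET_WT and at least 308-fold higher in DNMT_WT. Pou3f1 (OCT6), a POU factor of the formative epiblast (ENSMUSG00000090125, chr4:124656807-124660655), went from 0.299, 0.181 and 0.318 RPKM to 39.0, 38.7 and 37.7 in TET_WT. In DNMT_WT it went from 0.171 and 0.573 to 64.7, 69.2 and 69.5 RPKM, and its log2 change of 5.97 (SE 0.15, adjusted p = 3.0e-10) was the greatest among the rises that met the rule for named genes. No embryoid body library of either gene came near the ES cell range, and both levels at EB D2 were higher in DNMT_WT.

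Otx2, the homeodomain factor that redirects OCT4 to new enhancers in epiblast cells (ENSMUSG00000021848, chr14:48657677-48673819), was at 1.32, 1.98 and 2.36 RPKM in TET_WT ES cells and 31.3, 30.6 and 29.4 at EB D2. In DNMT_WT it was at 0.757 and 0.467 RPKM in ES cells and 33.1, 33.3 and 37.3 at EB D2, for a log2 change of 4.29 (SE 0.22, adjusted p = 6.3e-08) over both lines. Sox3, a SOX factor of the epiblast and neural plate, rose by 5.06, the growth factor gene Fgf15 by 5.14, Lef1, a nuclear effector of Wnt signalling, by 3.41, and Sox4 by 3.54. The zinc finger genes Zic2 and Zic5 rose by 2.05 and 1.60. Grhl2 and Cldn6, genes of epithelial junctions, rose by 2.94 and 3.65. The 3 members without a call were Foxd3 (0.24), Tead2 (-0.05) and Etv4, whose log2 change was 1.33 in TET_WT and -0.03 in DNMT_WT.

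**Figure D2:**
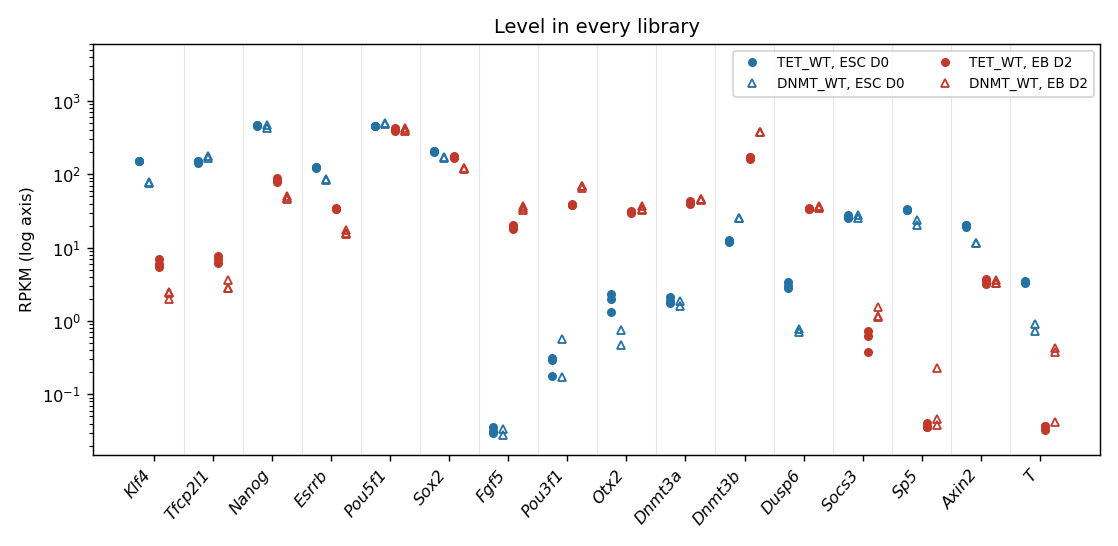
Level in RPKM (log axis) of 16 genes in each of the 11 libraries; blue points are ES cells and red points EB D2, filled circles TET_WT and open triangles DNMT_WT. The red points of Klf4, Tfcp2l1, Socs3 and Sp5 lie far below the blue ones, those of Fgf5, Pou3f1, Otx2, Dnmt3a, Dnmt3b and Dusp6 far above, and those of Pou5f1 and Sox2 close to them.

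The de novo DNA methyltransferases rose with the formative genes. Dnmt3a (ENSMUSG00000020661, chr12:3806007-3914443), one of the enzymes that set new methylation marks, was at 1.89, 2.16 and 1.76 RPKM in TET_WT and 1.63 and 1.87 in DNMT_WT ES cells. It reached 39.5, 43.7 and 40.4 RPKM in TET_WT and 44.9, 45.6 and 46.5 in DNMT_WT at EB D2, a log2 change of 4.22 (SE 0.07, adjusted p = 2.7e-11). Dnmt3b (ENSMUSG00000027478, chr2:153649450-153687730), the other such enzyme, went from 12.8, 12.02 and 12.4 to 162, 171 and 171 RPKM in TET_WT and from 25.4 and 25.7 to 375, 379.6 and 382 in DNMT_WT (log2 change 3.78, SE 0.04, adjusted p = 9.5e-13). It was higher in DNMT_WT at both stages, with log2 changes of 3.71 and 3.86. Their cofactor gene Dnmt3l rose by 4.14 in TET_WT and 1.73 in DNMT_WT, and that difference passed its test (difference 2.41, SE 0.15, adjusted p = 6.1e-07).

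Of the remaining genes of the methylation machinery only Tet2 was called. Dnmt1, which copies methylation at replication, was at 51.7 to 54.9 RPKM in the ES cells and 39.1 to 46.9 at EB D2, a log2 change of -0.26. Its recruiter Uhrf1 was at 161 to 163 RPKM in TET_WT and 242 to 253 in DNMT_WT ES cells, and at 101 to 115 RPKM at EB D2, a log2 change of -0.86. Of the dioxygenases that oxidise methylcytosine, Tet1 was at 20.5 to 25.4 RPKM before and 21.4 to 26.3 after (log2 change 0.02, SE 0.07, adjusted p = 0.85). Tet2 fell with line as covariate (log2 change -1.36, SE 0.22, adjusted p = 0.00034), with log2 changes of -0.75 in TET_WT and -2.13 in DNMT_WT. Tet3 stayed low, at 0.565 to 1.26 RPKM in the ES cells and 1.11 to 1.93 at EB D2. Of the 13 genes of this list 3 rose, in each line, and 1 fell, Tet2.

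Targets of the signals that 2i/LIF sets were followed next, starting with LIF and STAT3. Of 13 listed genes 7 fell in each line and none rose, with a median log2 change of -1.43. Socs3, the feedback inhibitor of the LIF receptor (ENSMUSG00000053113, chr11:117966079-117970047), was at 26.0, 27.9 and 25.1 RPKM in TET_WT and 25.6 and 27.5 in DNMT_WT ES cells, and at 0.722, 0.630 and 0.382 in TET_WT and 1.58, 1.13 and 1.17 in DNMT_WT at EB D2. Its log2 change was -4.33 (SE 0.15, adjusted p = 2.6e-09). Bcl3, an I-kappa-B-like cofactor, fell by 4.34 and Stat3 itself by 2.09 on the log2 scale, and Klf4, Tfcp2l1, Klf5 and Pim1 made up the 7. The receptor genes Lifr and Il6st had log2 changes of -0.72 and -0.77 without a call, and Socs1 0.00.

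Targets of Wnt and beta-catenin went both ways. Of 15 listed genes 6 fell and 3 rose with line as covariate, 4 and 2 in each line, with a median log2 change of -0.22. Sp5, a direct beta-catenin target that encodes a repressor (ENSMUSG00000075304, chr2:70474923-70477729), was at 32.9, 33.0 and 34.0 RPKM in TET_WT and 20.4 and 23.7 in DNMT_WT ES cells. No TET_WT EB D2 library had a read, which makes it at least 246-fold lower there against a floor of 3 reads per library, and the DNMT_WT EB D2 libraries were at 0.0462, 0.228 and 0.0381 RPKM. Cdx1, a caudal homeobox gene under Wnt control, went from 42.4, 51.3 and 48.3 to 0.0488, 0.142 and 0.243 RPKM in TET_WT and from 21.2 and 20.4 to 0.0554, 0.0493 and 0.0508 in DNMT_WT. Axin2, the feedback scaffold of the pathway (ENSMUSG00000000142, chr11:108920349-108950783), went from 20.2, 19.4 and 20.5 to 3.17, 3.79 and 3.55 RPKM in TET_WT. In DNMT_WT Axin2 went from 11.7 and 11.7 to 3.67, 3.27 and 3.28 RPKM, and its log2 change was -2.04 (SE 0.12, adjusted p = 1.8e-07). Notum, a secreted Wnt inactivator, fell by 1.35, and T and Ccnd1 by 1.94 and 1.03 with line as covariate only. The rises were Lef1, Sp8 (1.36) and, with line as covariate only, Nkd2 (1.02). Nkd2 was not called without either DNMT_WT ES cell library or without DNMT_WT EB D2 replicate 2 or 3 (log2 change 0.90 to 0.998, adjusted p up to 0.00044), nor Ccnd1 without DNMT_WT ESC D0 replicate 2 (log2 change -0.98, adjusted p = 1.5e-07).

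The 250 bases before the start of Sp5 are shown because they hold the TCF/LEF motif CTTTGAT, given in capitals, 1 time on the printed strand (RefSeq, GRCm38.p6, chr2:70474673-70474922, plus strand).
Sp5: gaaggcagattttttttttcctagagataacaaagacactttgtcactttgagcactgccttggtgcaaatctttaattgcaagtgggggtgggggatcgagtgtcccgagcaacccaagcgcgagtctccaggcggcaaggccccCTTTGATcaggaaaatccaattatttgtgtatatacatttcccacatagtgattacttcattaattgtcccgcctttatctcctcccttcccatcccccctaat
On either strand, CTTTGAT was found in 3.56% of 702 promoter windows of 300 bases from genes that fell in each line, in 2.34% of 728 windows from genes that rose and in 2.52% of 14222 windows from all tested genes. The STAT motif TTCCNGGAA was in 1.57%, 0.824% and 1.22% of the same windows. These matches are letters in a window and describe no binding.

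Feedback genes of the ERK pathway rose in part. Of 19 listed genes 8 rose with line as covariate and 7 in each line, none fell, and the median log2 change was 0.73. Dusp6, the phosphatase that switches ERK off (ENSMUSG00000019960, chr10:99263231-99267489), was at 3.39, 2.82 and 3.00 RPKM in TET_WT and 0.780 and 0.704 in DNMT_WT ES cells. At EB D2 the lines stood together, at 35.1, 33.6 and 33.5 RPKM in TET_WT and 35.3, 36.5 and 34.6 in DNMT_WT, and the log2 change was 3.98 (SE 0.25, adjusted p = 2.3e-07). Dusp4 rose by 3.85, the inhibitor gene Spry4 by 3.86, the immediate early gene Egr1 by 2.64, Spry1 by 2.34 and Myc by 2.19. Etv5, an ETS factor that acts downstream of FGF, was at 84.4 to 107 RPKM in the ES cells and 101 to 127 at EB D2, and Fos had a log2 change of 0.45. The ETS motif ACCGGAAGT was in 0.137% of promoter windows of genes that rose in each line, 0.427% of those that fell and 2.05% of all, and the CArG box of serum response factor in 0.412%, 0% and 0.0984%.

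BMP targets divided. Of 13 listed genes 2 rose in each line and 2 fell with line as covariate only, and the median log2 change was -0.30, with medians of opposite sign in the lines (-0.35 in TET_WT and 0.27 in DNMT_WT). For 6 of the 13 the DNMT_WT change lay above the TET_WT change by the test of the difference, and for none below it. Over all 15267 genes tested it lay above for 799. Id1, an inhibitor of helix-loop-helix factors (ENSMUSG00000042745, chr2:152736251-152737410), rose from 3.66, 4.02 and 4.15 RPKM in TET_WT and 2.43 and 1.63 in DNMT_WT to 20.1, 21.3 and 23.7 in TET_WT and 24.4, 26.6 and 26.2 in DNMT_WT (log2 change 2.80, SE 0.18, adjusted p = 3.7e-07). Its relative Id2 rose by 2.098. Id3 had changes of opposite sign: it was at 22.7 to 29.5 RPKM in TET_WT and 3.31 to 3.74 in DNMT_WT ES cells, and at 7.74 to 9.90 and 7.21 to 10.3 RPKM at EB D2 (difference -2.75, SE 0.20, adjusted p = 2.1e-06). The ligand gene Bmp7 fell by 1.70 and the inhibitor gene Smad6 by 1.002 with line as covariate, and Bmp4 had a log2 change of -0.07. Smad6 was not called without TET_WT ESC D0 replicate 3 or TET_WT EB D2 replicate 1 or 3 (log2 change -0.94 to -0.90, adjusted p up to 0.00074).

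In the Nodal pathway 4 of 11 listed genes rose with line as covariate, 3 in each line, and 1 fell, with a median log2 change of 0.84. Lefty1, a secreted Nodal inhibitor (ENSMUSG00000038793, chr1:180935022-180938400), was at 14.6, 15.5 and 15.8 RPKM in TET_WT but 0.374 and 0.314 in DNMT_WT ES cells. At EB D2 it was at 97.3, 103 and 100.2 RPKM in TET_WT and 60.2, 56.4 and 55.9 in DNMT_WT, so that it rose in each line, by 2.67 and 6.10. The co-receptor gene Tdgf1 rose as given above. Lefty2 rose with line as covariate only, and was not called without any 1 of the DNMT_WT libraries (log2 change 1.49 to 1.91, adjusted p up to 0.13). Nodal itself was at 28.8 to 34.2 RPKM in the ES cells and 26.4 to 45.5 at EB D2, and Pcsk6, a convertase that processes it, fell by 1.60. Of 11 FGF ligand and receptor genes 3 rose, Fgf5, Fgf15 and Fgf8 (3.21), and Fgf10 fell by 1.43, all in each line, with a median of 0.27. The receptor gene Fgfr1 had a log2 change of -0.43 and Fgfr2 0.58.

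Among the 286 rises and 407 falls eligible by the rule for named genes, the 12 greatest in each direction included several genes outside these pathways. Vrtn, a gene known for vertebral number, was at 0.0218 to 0.248 RPKM in the ES cells and 19.1 to 25.3 at EB D2. Myrf, a membrane-bound transcription factor known from oligodendrocytes, was at 0.0723, 0.0348 and 0.0667 RPKM in TET_WT and 0.0988 and 0.156 in DNMT_WT ES cells, and at 18.0, 19.9 and 19.9 in TET_WT and 22.1, 21.4 and 22.2 in DNMT_WT at EB D2. Its changes in the lines were 5.15 and 5.16. The secreted collagen-repeat gene Cthrc1 rose by 4.97, the kinase gene Pim2 by 4.50 and the epithelial splicing regulator Esrp1 by 4.43. Car4, a membrane-bound carbonic anhydrase, had no read in the ES cells and was at 9.60 to 18.0 RPKM at EB D2, at least 74.2-fold higher in TET_WT and at least 119-fold higher in DNMT_WT. Pou3f1, Fgf5, Fgf15, Sox3, H19 and Slc16a3 completed the 12.

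The greatest falls included Cdx1, Sp5, Tfcp2l1 and Klf4, described above, and genes of varied function. The aquaglyceroporin gene Aqp3 fell by 5.29, Ckb, a creatine kinase, by 4.88, and the transglutaminase gene Tgm1 by 4.73. Crxos, a double-homeobox gene annotated antisense to Crx, fell by 5.29. Calcoco2, an autophagy receptor, was at 60.1 to 63.0 RPKM in TET_WT and 182 to 191 in DNMT_WT ES cells, and at 1.65 to 5.56 RPKM at EB D2. The RAS-related gene Mras fell by 4.53. Serpinb1a, a protease inhibitor, was at 8.58 to 17.3 RPKM in the ES cells and had at most 1 read in each EB D2 library.

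Markers of germ layers were at most partly present. Of 15 tested genes of the primitive streak and early mesoderm 1 rose and 5 fell with line as covariate, 1 and 2 in each line, with a median of 0.01. T (Brachyury), the defining streak factor (ENSMUSG00000062327, chr17:8434423-8442496), was at 3.36, 3.26 and 3.53 RPKM in TET_WT and 0.731 and 0.919 in DNMT_WT ES cells. It stood at 0.0369, 0.0322 and 0.0367 RPKM in TET_WT and 0.0419, 0.373 and 0.422 in DNMT_WT at EB D2, and fell with line as covariate (log2 change -1.94, SE 0.34, adjusted p = 0.00062). Eomes had a log2 change of -0.73 in TET_WT and 1.33 in DNMT_WT, and Mixl1 and Mesp1 stayed below 1 RPKM in all 11 libraries. Gsc, an organiser homeobox gene, was at 3.14 to 11.99 RPKM in the ES cells and fell by 3.46, to at most 0.5 RPKM, and Cdx2 fell by 1.404 with line as covariate. Fgf8, also a list member, was the rise. The summed level of the list was 60.7 to 70.6 RPKM in TET_WT and 39.4 to 41.7 in DNMT_WT ES cells, and 12.6 to 14.6 in TET_WT and 12.9 to 14.4 in DNMT_WT at EB D2. Cdx1 was the most abundant member in the ES cells, and without it the sum was 18.3 to 20.4 RPKM in TET_WT and 18.1 to 21.3 in DNMT_WT ES cells, and 12.4 to 14.5 and 12.8 to 14.3 at EB D2.

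Of 10 tested genes of definitive endoderm 1 rose with line as covariate, Gata6, and none in each line. Over all genes tested 7.68% rose and 7.48% fell with line as covariate. In each of the lineage lists above and below, none, 1 or 2 calls in a direction are thus no result about the list. Foxa2 and Sox17 stayed below 1 RPKM in all 11 libraries. Of 9 tested neuroectoderm genes none rose and 4 fell in each line: Tubb3 by 1.78, Ncam1 by 1.61, En2 by 1.45 and Hesx1 by 2.82. The neural progenitor genes Sox1 and Pax6 had log2 changes of 0.95 and 0.68, at 2.47 to 4.03 and 0.268 to 0.655 RPKM at EB D2. Nes had log2 changes of -0.95 in TET_WT and 1.21 in DNMT_WT (difference -2.16, SE 0.14, adjusted p = 8.1e-07). With a pseudocount of 0.1 RPKM in place of 0.5, Sox1 (1.14), Pax6 (1.73), Gata4 (1.02) and Foxa2 (1.21) passed as rises with line as covariate. Limma-voom on the recovered reads, with line as covariate, called more members of most lineage lists. It called 5 streak genes higher and 6 lower, 4 and 1 of definitive endoderm, and 4 and 4 of neuroectoderm. Of visceral endoderm it called 11 and 2, of blood and endothelium 7 and 1, and of trophoblast 3 and 5. Cardiac genes gave 3 and 5, and fibroblast genes 3 and 3. Over all genes it called 2180 higher and 1640 lower, against 1172 and 1142.

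Genes of primitive and visceral endoderm, the extraembryonic layer that covers embryoid bodies, rose in part: 7 of 18 rose and 2 fell with line as covariate, 4 and 2 in each line, with a median of 0.69. The endocytic receptor genes Lrp2 and Cubn rose by 2.43 and 2.17, and Cubn, without a read in TET_WT ES cells, was at least 130-fold higher there. Col4a1 and Lamb1 of the basement membrane rose by 2.29 and 2.05, while Sparc and Lama1 of the same structure fell by 2.27 and 2.13. Dab2, an endocytic adaptor, was at 0.0603, 0.257 and 0.10004 RPKM in TET_WT ES cells and 3.64, 4.30 and 4.82 at EB D2, but at 1.43 and 1.82 in ES cells and 1.92, 2.21 and 2.13 at EB D2 in DNMT_WT, and its change differed (difference 2.62, SE 0.21, adjusted p = 3.3e-06). Gata6 was at 1.23 to 1.37 RPKM in TET_WT and 0.298 to 0.442 in DNMT_WT at EB D2, Sox7 at 1.42 to 1.58 and 0.290 to 0.49997, and Gata4 at 1.93 to 2.11 and 0.729 to 0.933. The secreted products Afp and Ttr stayed below 0.5 RPKM in all 11 libraries. The part of extraembryonic cells in the changes of other genes was not tested. The summed level of the 18 genes was 298 to 301 RPKM in TET_WT and 163 to 172 in DNMT_WT ES cells, and 219 to 239 in TET_WT and 226 to 247 in DNMT_WT at EB D2. Sparc and 1 other member held most of the sum, and without these 2 it was 10.8 to 13.3 RPKM in TET_WT and 14.1 to 15.0 in DNMT_WT ES cells, and 36.6 to 43.9 and 31.7 to 33.9 at EB D2.

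Early blood and endothelial genes gave 3 rises of 13 and 1 fall, all in each line. Etv2, the initiator of the haemato-endothelial programme, was at 0.675, 0.853 and 1.01 RPKM in TET_WT and 1.70 and 1.43 in DNMT_WT ES cells, and at 2.35, 3.16 and 3.49 in TET_WT and 4.35, 5.03 and 6.19 in DNMT_WT at EB D2 (log2 change 1.41, SE 0.12, adjusted p = 2.6e-06). Tal1 and Lmo2, partners in the blood transcription complex, rose by 1.46 and 1.56, and stood at 0.520 to 1.64 and 0.650 to 2.87 RPKM at EB D2. Pecam1, which ES cells also express, fell by 2.12. The markers that define the lineage were low: Kdr reached 0.273 to 0.605 RPKM, and Gata1 and the embryonic globin gene Hbb-bh1 stayed below 1 RPKM in all 11 libraries.

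Trophoblast genes gave 1 rise and 4 falls of 12 tested, 1 and 2 in each line. Tfap2c and Tead4, which ES cells share with trophoblast, fell by 3.53 and 2.32, and the keratin gene Krt18 rose by 1.67. The defining Elf5 did not reach the level for testing, and Gata3 and Hand1 were at 0.0187 to 0.171 and 0.0415 to 0.312 RPKM at EB D2. Of 12 fibroblast and mesenchyme genes 3 rose and 3 fell with line as covariate, 2 and 0 in each line. Twist1 rose by 1.38, standing at 1.97 to 3.75 RPKM at EB D2, and Dcn by 1.41, Thy1 rose with line as covariate only, and Vim, Fn1 and Pdgfrb fell in the same way. Of the feeder cell markers, Col1a1, Col1a2, Col3a1 and Postn stayed below 0.5 RPKM in all 11 libraries. Dcn and Thy1, which are also feeder cell markers, were among the rises just given, with Dcn at 0.488 to 1.48 RPKM at EB D2. Of 12 cardiac genes Myh6 rose in each line, standing at 0.899 to 1.63 RPKM, Tagln rose with line as covariate, and Myl7 fell with line as covariate (log2 change -1.25, SE 0.49, adjusted p = 0.048), with log2 changes of -2.50 in TET_WT and 0.30 in DNMT_WT. Myl7 was not called without any 1 of the TET_WT libraries or without DNMT_WT EB D2 replicate 1 (log2 change -1.28 to -0.97, adjusted p up to 0.11), nor Tagln without either DNMT_WT ES cell library or DNMT_WT EB D2 replicate 2 (log2 change 0.93 to 0.94, adjusted p up to 0.011).

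Genes of the hypoxia response and of glycolysis were among the rises. Of 16 hypoxia genes 7 rose in each line and 1, Vegfa, fell with line as covariate, with a median of 0.45. Egln3, an oxygen sensor that hydroxylates HIF (ENSMUSG00000035105, chr12:54178981-54203860), was at 0.432, 0.112 and 0.644 RPKM in TET_WT and 0.918 and 0.888 in DNMT_WT ES cells, and at 22.0, 19.2 and 19.6 in TET_WT and 25.4, 23.4 and 24.9 in DNMT_WT at EB D2 (log2 change 4.39, SE 0.15, adjusted p = 2.4e-09). Bnip3, a mitophagy receptor, rose by 4.11 and Ddit4, an mTORC1 inhibitor, by 2.20. Pdk1, the kinase that shuts pyruvate out of mitochondria (ENSMUSG00000006494, chr2:71873224-71903858), was at 12.4, 11.96 and 12.9 RPKM in TET_WT but only 0.544 and 0.557 in DNMT_WT ES cells. At EB D2 it was at 37.7, 39.5 and 39.9 RPKM in TET_WT and 39.2, 40.4 and 41.1 in DNMT_WT, so that it rose in each line by different amounts, 1.61 and 5.28. Carbonic anhydrase Car9 stayed below 0.5 RPKM in all 11 libraries, and the prolyl hydroxylase gene Egln1 had a log2 change of 0.13. Vegfa was not called without either DNMT_WT ES cell library or DNMT_WT EB D2 replicate 2 or 3 (log2 change -0.98 to -0.91, adjusted p up to 0.0022).

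Of 20 glycolysis genes 8 rose and 1 fell with line as covariate, but only 2 rose and 1 fell in each line, and the median log2 change was 0.53 in TET_WT and 1.45 in DNMT_WT. Slc16a3, the lactate exporter (ENSMUSG00000025161, chr11:120948480-120960868), was at 4.86, 5.45 and 6.02 RPKM in TET_WT and 0.389 and 0.252 in DNMT_WT ES cells, and at 62.0, 63.9 and 65.7 in TET_WT and 76.0, 69.8 and 76.4 in DNMT_WT at EB D2. It rose in each line, as did Pfkl, a phosphofructokinase (1.25 and 3.73), while the hexokinase gene Hk1 fell by 2.41. The glucose transporter gene Slc2a1 was at 53.1, 51.6 and 54.0 RPKM in TET_WT and 16.6 and 14.3 in DNMT_WT ES cells, and at 102, 93.3 and 97.8 in TET_WT and 219, 228 and 219 in DNMT_WT at EB D2. Tpi1, Pgk1, Eno1, Pkm and Ldha were the other rises with line as covariate. For 11 of the 20 genes the DNMT_WT change lay above the TET_WT change by the test of the difference, and for none below it. Over all 15267 genes tested it lay above for 799. The median level of the list in TET_WT relative to DNMT_WT was 0.86 at ESC D0 and -0.31 at EB D2 on the log2 scale.

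The 250 bases before the starts of Slc16a3 (chr11:120948817-120949066, plus strand) and Egln3 (chr12:54203875-54204124, minus strand, printed in the direction of the gene) are shown because each holds the hypoxia element GACGTG, in capitals, 2 times in Slc16a3 and 1 time in Egln3 (RefSeq, GRCm38.p6). The RefSeq start used for Slc16a3 lies inside the span of the gene given above, so its window overlaps that span.
Slc16a3: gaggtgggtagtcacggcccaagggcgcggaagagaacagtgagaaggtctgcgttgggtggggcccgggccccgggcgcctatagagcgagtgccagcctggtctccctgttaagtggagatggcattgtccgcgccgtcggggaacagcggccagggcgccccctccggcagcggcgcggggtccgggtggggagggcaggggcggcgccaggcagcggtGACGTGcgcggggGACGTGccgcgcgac
Egln3: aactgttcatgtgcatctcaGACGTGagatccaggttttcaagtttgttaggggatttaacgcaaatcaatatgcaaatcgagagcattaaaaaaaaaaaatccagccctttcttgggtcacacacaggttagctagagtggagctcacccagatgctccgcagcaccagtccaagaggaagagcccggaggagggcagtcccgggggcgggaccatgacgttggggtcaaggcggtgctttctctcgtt
On either strand GACGTG was in 8.38% of promoter windows of genes that rose in each line, 6.27% of those that fell and 9.13% of all, so the share among rising genes was below that of all tested genes. It does not contain the E-box CACGTG, which was in 8.38%, 8.97% and 9.82%.

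Imprinted genes, which are expressed from 1 parental allele, rose more often than they fell: 12 of 24 tested rose and 1 fell with line as covariate, 10 and 1 in each line, with a median of 1.20. H19, a maternally expressed noncoding RNA (ENSMUSG00000000031, chr7:142575529-142578143), had no read in TET_WT ES cells and stood at 0.0382 and 0.0288 RPKM in DNMT_WT ES cells. At EB D2 it was at 8.72, 11.3 and 8.37 RPKM in TET_WT and 43.2, 42.5 and 44.7 in DNMT_WT, at least 78.2-fold higher in TET_WT. Nnat rose by 3.23, Cdkn1c, a cell cycle inhibitor, by 3.12, Peg10 by 3.10, Snrpn by 2.75, Magel2 by 2.59 and Peg3 by 2.23. Plagl1, a zinc finger factor, fell by 3.64. Igf2, which shares the H19 locus, was at 0.0174 to 0.673 RPKM in the ES cells and 0.318 to 0.680 at EB D2 (log2 change 0.25). Meg3 and Dlk1 rose with line as covariate only, with log2 changes of Meg3 of 0.52 in TET_WT and 3.50 in DNMT_WT.

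Genes of the two-cell-like state divided by line. Of 13 tested genes 9 rose with line as covariate but only Zscan4e and Tcstv3 in each line. For 12 of the 13 the TET_WT change lay above the DNMT_WT change by the test of the difference, against 914 of all 15267 genes tested. Zscan4d, a member of the telomere-linked Zscan4 cluster, was at 0.0389, 0.131 and 0.108 RPKM in TET_WT ES cells and 8.43, 9.04 and 9.40 at EB D2, but at 1.49 and 1.49 RPKM in ES cells and 1.15, 1.81 and 2.82 at EB D2 in DNMT_WT. Zscan4c was at 0.0323 to 0.0436 RPKM in TET_WT and 0.450 to 0.785 in DNMT_WT ES cells, and at 5.46 to 6.37 and 1.179 to 1.48 RPKM at EB D2. These genes are close copies, so the value of any 1 of them is uncertain. Zfp352 had a log2 change of 1.399 in TET_WT and -0.16 in DNMT_WT.

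Germline genes whose promoters are known to be controlled by DNA methylation differed between the lines, too. Of 22 listed genes 7 rose and 3 fell with line as covariate, 4 and 0 in each line. For 15 the TET_WT change lay above the DNMT_WT change by the test of the difference, against 914 of all 15267 genes tested. At ESC D0 all 22 were higher in DNMT_WT, with a median TET_WT level of -1.54 relative to DNMT_WT on the log2 scale, and at EB D2 that median was 0.09. Dazl, a germ cell RNA-binding protein gene (ENSMUSG00000010592, chr17:50279395-50293636), was at 5.72, 5.64 and 6.11 RPKM in TET_WT and 40.6 and 41.1 in DNMT_WT ES cells. At EB D2 it was at 4.10, 4.38 and 6.23 RPKM in TET_WT and 2.31, 2.94 and 2.89 in DNMT_WT, a log2 change of -0.25 in TET_WT and -3.69 in DNMT_WT. Its fall with line as covariate was not called without either DNMT_WT ES cell library (log2 change -1.398 to -1.39, adjusted p up to 0.052). The synaptonemal complex gene Sycp1 rose by 3.06 in TET_WT and had a log2 change of 0.102 in DNMT_WT. Ddx4, Sycp3, Taf7l and Dnmt3l rose in each line.

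Several epithelial genes rose, while Cdh1 and Cdh2 were not called. Of 18 adhesion genes 5 rose, in each line, and 4 fell with line as covariate, of which Ncam1 in each line; without TET_WT EB D2 replicate 1, 2 fell in each line. Cdh1 (E-cadherin, ENSMUSG00000000303, chr8:106603351-106670246) was at 174, 173 and 172 RPKM in TET_WT and 213 and 210.5 in DNMT_WT ES cells, and at 113, 127 and 121 in TET_WT and 207, 205 and 203 in DNMT_WT at EB D2 (log2 change -0.31, SE 0.08, adjusted p = 0.0066). Cdh2 (N-cadherin) was at 0.603 to 0.827 RPKM in the ES cells and 1.03 to 2.15 at EB D2 (log2 change 0.70, SE 0.13, adjusted p = 0.001). The adhesion gene Epcam was at 9.89 to 31.0 RPKM in the ES cells and 81.3 to 107 at EB D2, a rise of 2.27. Cldn6 and Cldn7 of tight junctions rose by 3.65 and 2.30, and the others were Esrp1 and Cdh3 (1.44).

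Cell cycle genes gave 4 rises and 3 falls of 15, 4 and 1 in each line. Ccnd2 rose by 2.42 and Ccne1 by 1.12, Cdk6 fell by 1.17, and Ccnd1 and the inhibitor gene Cdkn1a fell with line as covariate only. Of 14 p53 targets the BH3-only gene Pmaip1 rose by 3.13 and Cdkn1a fell. Over all genes tested 7.68% rose and 7.48% fell with line as covariate. In this list and the stress, amino acid and Polycomb lists below, 1 or 2 calls per direction are thus no result about the list. Of 14 tested genes of serine, one-carbon and amino acid stress metabolism the arginine transporter gene Slc7a3 rose by 1.52 and asparagine synthetase Asns fell by 1.99. Of 12 stress genes Hmox1 rose by 1.35, Nqo1 fell by 2.13 and Hspb1 fell with line as covariate. Of 16 Polycomb genes 2 fell and 1 rose with line as covariate. Cbx8 fell by 1.24 and Phf19 rose by 1.09, both with line as covariate only, while Ezh2 had a log2 change of -0.26. Without DNMT_WT ESC D0 replicate 2 neither Hspb1 (log2 change -0.99, adjusted p = 0.0032) nor Phf19 was called, and Phf19 also not without replicate 1 (log2 change 0.98 to 0.997, adjusted p up to 0.0013). Metallothioneins Mt1 and Mt2 fell with line as covariate, with log2 changes of Mt1 of -2.50 in TET_WT and -0.12 in DNMT_WT, and the zinc exporter gene Slc30a1 fell in each line by 1.48.

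Of 23 cholesterol synthesis genes none was called by limma. At an unadjusted p under 0.05 by limma there were 18 of any size, beside 9545 of the 15267 genes tested. On the recovered reads limma-voom called 0. The sterol element TCACCCCAC was in 0.275% of promoter windows of rising genes, 0.57% of falling genes and 0.605% of all, and the metal element TGCGCNC in 24.9%, 24.5% and 25.8%. The median log2 change of the cholesterol genes was 0.04 in TET_WT and 0.70 in DNMT_WT. Of 13 mitochondrially encoded genes 5 rose with line as covariate and mt-Nd6 in each line, beside the share of mitochondrial reads given above. The oxidase gene mt-Co1 was at 966, 1045 and 1078 RPKM in TET_WT ES cells, 5642, 3112 and 4826 at EB D2, and in DNMT_WT at 2412 and 2000.5 in ES cells and 3202, 3014 and 2976 at EB D2, so that the library that stood apart was the highest of its group. Of 12 housekeeping genes B2m alone fell, with line as covariate but not without TET_WT EB D2 replicate 1 (log2 change -0.97, adjusted p = 0.00075), and the median of the list was 0.07; Tubb5 had a log2 change of 0.00 and Actb -0.30.

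**Figure D3:**
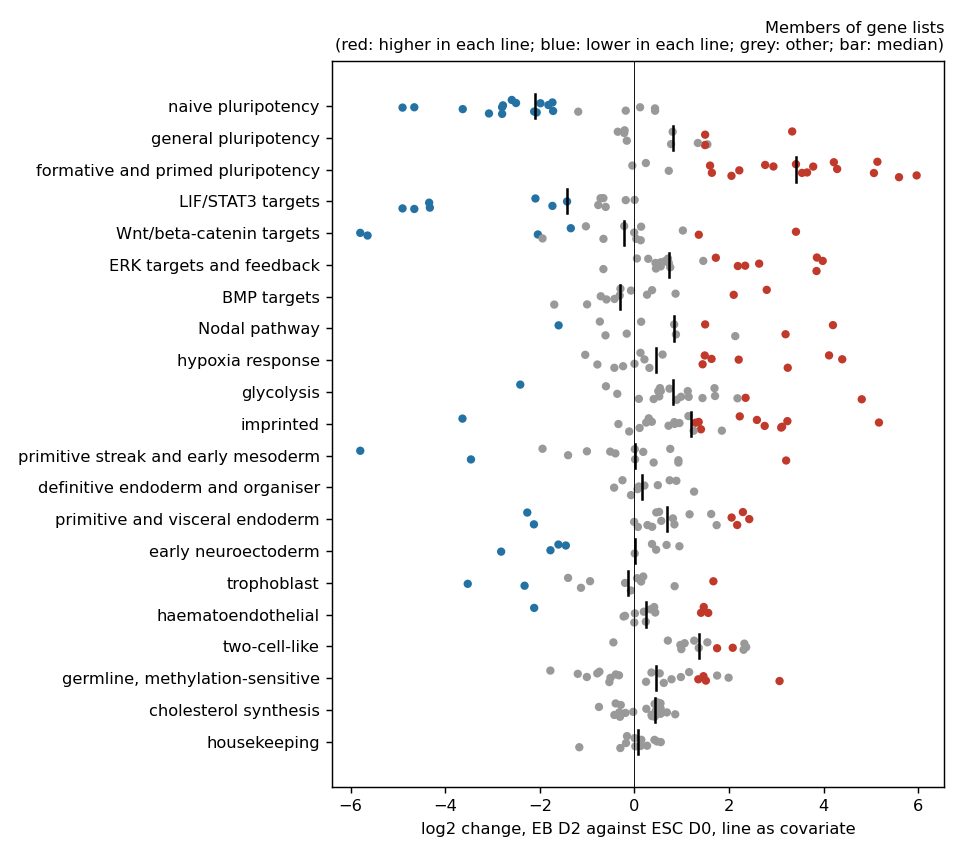
Log2 change from ESC D0 to EB D2 (horizontal axis, line as covariate) of the tested members of 21 gene lists; red points rose and blue points fell in each line, grey points did not pass in each line, and the black bar is the median. The formative list (median 3.41) lies to the right of 0, the naive list (median -2.09) and the LIF/STAT3 list (median -1.43) to the left, and the housekeeping list (median 0.07) around it.

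The size of the change differed between the lines for 1713 genes (11.2% of those tested), with the TET_WT change above the DNMT_WT change for 914 and below it for 799. Of these, 128 lie on chromosome 1, with 111 above and 17 below. Only 25 genes were called in opposite directions, and of the 1500 genes called in each line, 286 also differed in size. The lines lay further apart at ESC D0 than at EB D2: the root mean square log2 distance between them over all tested genes was 0.623 and 0.494. The distance from ESC D0 to EB D2 was 0.833 in TET_WT and 0.976 in DNMT_WT. Of the 1713 genes, 1089 (63.6%) were further apart at ESC D0, against 54.0% of all tested genes.

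The 5 greatest differences in each direction were in genes whose ES cell levels stood apart between the lines. Trh, which encodes thyrotropin-releasing hormone (ENSMUSG00000005892, chr6:92242061-92244650), was at 204, 197 and 208 RPKM in TET_WT and 4.75 and 5.98 in DNMT_WT ES cells, and at 103, 103 and 106 in TET_WT and 168, 173 and 166 in DNMT_WT at EB D2. Its change differed by -5.82 (SE 0.09, adjusted p = 4.5e-11). Lefty2, like Lefty1 a Nodal inhibitor, was at 106, 103 and 107 RPKM in TET_WT and 0.756 and 1.06 in DNMT_WT ES cells, and at 85.2, 98.4 and 90.0 in TET_WT and 48.2, 43.8 and 46.0 in DNMT_WT at EB D2 (difference -5.26, SE 0.11, adjusted p = 1.9e-10). The RAS-like growth inhibitor gene Rerg fell by 4.81 in TET_WT, where the ES cells were at 17.7 to 19.02 RPKM, and was at 0.447 to 0.692 RPKM in DNMT_WT ES cells. Cavin1, a caveolar coat gene, was at 23.9 to 27.2 RPKM in TET_WT and 1.99 to 2.66 in DNMT_WT ES cells, and at 2.20 to 3.21 at EB D2. Pdk1 was the fifth.

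In the other direction, AA467197 (ENSMUSG00000033213, chr2:122636986-122641191) was at 0.0662, 0.248 and 0.0678 RPKM in TET_WT and 40.1 and 42.0 in DNMT_WT ES cells, and at 0.0789, 0.0688 and 0.0636 in TET_WT and 1.21, 0.876 and 1.26 in DNMT_WT at EB D2 (difference 4.57, SE 0.20, adjusted p = 5.1e-08). The collagen receptor gene Ddr2 was at 11.8 to 12.98 RPKM in the ES cells and 0.00931 to 0.0943 at EB D2 in DNMT_WT, and was below 0.5 RPKM in all TET_WT libraries of both stages. Pramel6 went from 32.9 and 35.4 RPKM to no read in DNMT_WT, at least 245-fold lower, and from 2.89, 1.81 and 2.04 to 0.0455, 0.437 and 0.286 RPKM in TET_WT. The secreted factor gene Igfbp7 fell by 4.18 and the noncoding RNA Platr16 by 3.19 in DNMT_WT, with log2 changes of -0.06 and 0.76 in TET_WT. In the ES cells Igfbp7 was at 9.17 to 10.8 RPKM in DNMT_WT and 0.878 to 0.951 in TET_WT, and Platr16 at 54.3 to 58.2 and 10.0 to 12.2 RPKM.

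**Figure D4:**
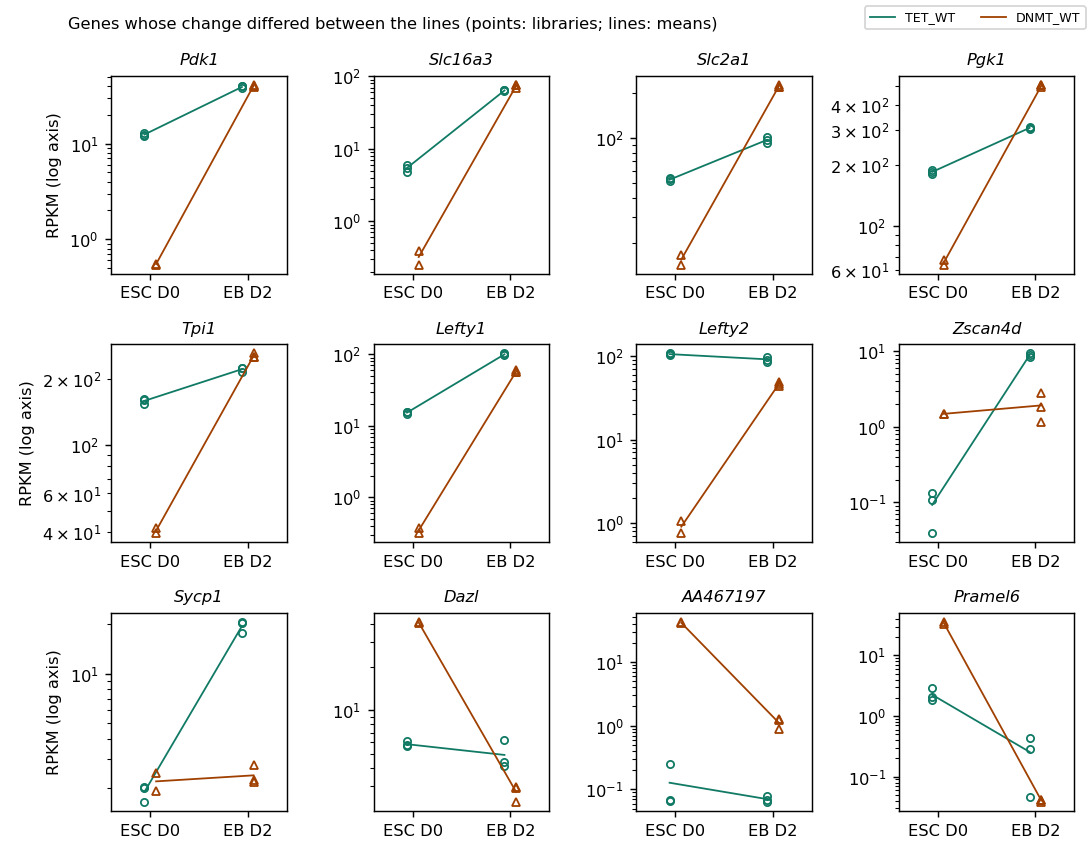
Level in RPKM (log axis) at ESC D0 and EB D2 of 12 genes whose change differed between the lines; points are libraries, lines join the group means, green circles are TET_WT and brown triangles DNMT_WT. Pdk1, Slc16a3, Slc2a1, Lefty1 and Lefty2 start lower in DNMT_WT ES cells; at EB D2 Pdk1 lies together in the lines, Slc2a1 higher and Lefty1 and Lefty2 lower in DNMT_WT. Dazl, AA467197 and Pramel6 start higher in DNMT_WT ES cells.

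The same comparison in the knockout lines used 10 other libraries, 3 TET_KO and 3 DNMT_KO at ESC D0 and 2 of each at EB D2. There 1250 genes rose (8.19%) and 1030 fell (6.75%) with line as covariate. Of the 758 genes that rose in each wild-type line, 678 (89.4%) also rose in the knockout lines, which is 54.2% of the genes that rose there. Of the 742 that fell, 615 (82.9%) also fell, 59.7% of the genes that fell there. None was called in the opposite direction, and 758 and 740 had the same sign. Klf4 had a log2 change of -5.09 in the knockout lines, Nanog -3.64, Fgf5 5.87, Pou3f1 5.76 and Pou5f1 -0.15. Dnmt3a and Dnmt3b, which the DNMT_KO line carries as knockout alleles, had 3.42 and 4.15 there.

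The other wild-type conditions place EB D2 within the course, as levels without a test. Fgf5 was at a mean of 19.5 ± 1.27 RPKM (SD, n = 3) in TET_WT at EB D2, 4.76 in EpiLC at day 2, 57.5 at EB D4 and 1.04 at EB D8; in DNMT_WT the means were 34.8, 5.34, 69.8 and 2.43 RPKM. Its highest mean in both lines was thus at EB D4. Pou3f1 was highest at EB D2 in both lines, with means of 38.5 and 67.8 RPKM against 27.5 and 33.7 at EB D4. Nanog did not fall steadily: its means were 84.3 and 48.4 RPKM at EB D2, 126 and 128 at EB D4, and 13.97 and 16.2 at EB D6. Sp5, below 0.5 RPKM in all EB D2 libraries, was at 3.95 and 18.3 RPKM at EB D4, and T at 7.401 and 29.3. Pou5f1 was at 325 and 427 RPKM at EB D4 and at 28.3 and 61.3 at EB D6. EB D2 libraries thus had Pou5f1 and formative genes high and T below 0.5 RPKM, while the T and Eomes levels of EB D4 (Eomes 27.7 and 61.9 RPKM) were above those of every earlier condition.

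**Figure D5:**
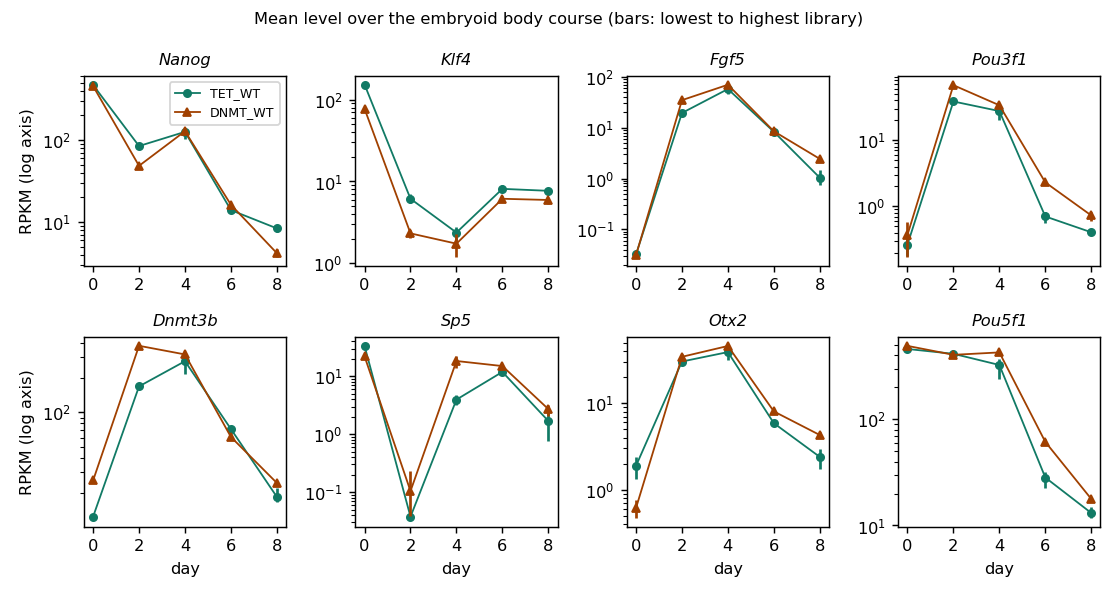
Mean level in RPKM (log axis) of 8 genes in the wild-type lines from ESC D0 (day 0) over EB D2, D4, D6 and D8 (horizontal axis, day); vertical bars run from the lowest to the highest library, green circles are TET_WT and brown triangles DNMT_WT. Fgf5 and Otx2 peak at day 4, Pou3f1 at day 2, and Sp5 drops at day 2 and returns at day 4.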

How the data were processed

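RNA-seq libraries of mouse ES cells, EpiLC and embryoid bodies were prepared from poly(A) RNA with a stranded kit, per the labels' protocols. The authors deposited 1 gene table of log2 RPKM values. Trim Galore 0.6.1, cutadapt 1.18, HISAT2 2.1.0 and the build GRCm38 are named in the submitters' processing notes; for the counting tool and annotation nothing is stated in the sources used here. No strand setting of the counting is stated, so overlapping and antisense genes such as Crxos cannot be told apart from their partners.

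Whole reads were recovered from the steps of the deposited values: 99.3% of low values, up to 20 reads, were whole within 0.1 read. They gave the depth of 10.1 to 12.7 M reads per library, and 1 read on a 2-kb gene is worth 0.0394 to 0.0497 RPKM. The columns were matched to samples by name; 1 column, of DNMT_WT EpiLC at day 1, was matched to its group only.

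Genes that reached 1 RPKM in 2 or more of the 79 libraries were tested on log2(RPKM + 0.5) with limma 3.58.1 in R 4.3.3 (empirical Bayes with trend and robust settings, two-sided, Benjamini-Hochberg over all genes tested), with line as covariate, in each line, and for the difference between lines; the pipeline was tested on simulated data. Calls required a change of 1 or more in size at an adjusted p below 0.05. Replicate numbers were not used as a block. Named genes are the 12 greatest rises and falls among genes called in each line with a mean of at least 5 RPKM, up to 4 called members and the defining markers of each list, fixed genes of the pathways, and the 5 greatest line differences in each direction; 65 further list members were named after their values were seen. Some genes that the rule picks are not reported here. The members and lists were chosen with earlier results of these data known. RefSeq promoter windows (GRCm38.p6; 250 bases before to 50 after the start) were matched by symbol or gene ID for 11174 tested genes (14222 windows, as a gene can have several). Alternatives were the pseudocount, filter, scaling, tool, block, fit over all 28 groups and left-out libraries.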

Additional observations from a re-analysis of the deposited data

Results flagged for a closer look

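The change from ESC D0 to EB D2 differed between TET_WT and DNMT_WT, by limma's test of the difference, for 90 of the 218 genes named above. Over all genes tested 11.2% differed. Some genes were named because their change differed and others after their values were seen, so the 2 shares cannot be compared. Values are the TET_WT minus DNMT_WT log2 change. Many comparisons were made, and chromosome 1 genes and genes without a read in a group are among them.

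Among genes of pluripotency and its loss, the difference was 1.01 for Klf2, 1.28 for Tfcp2l1, 1.44 for Tbx3, 1.56 for Zfp42, 1.185 for Nr5a2, 2.58 for Tcl1, 1.01 for Fgf4, 1.14 for Gbx2, -1.75 for Lin28a, 1.01 for Dppa2, -1.27 for Otx2, -1.24 for Sox3, -1.13 for Sox4, -1.22 for Zic2, -1.88 for Cldn6, 1.45 for Grhl2, 1.36 for Etv4, 1.38 for Tet2 and 2.41 for Dnmt3l. In targets of the 2i/LIF signals and of BMP and Nodal, it was -1.58 for Dusp6, -1.32 for Dusp4, -1.23 for Spry4, 1.20 for Egr1, -1.28 for Myc, 1.05 for Il6st, -1.07 for Id1, -2.75 for Id3, -1.30 for Bmp7, -3.43 for Lefty1 and -5.26 for Lefty2. In metabolism and the hypoxia response it was -3.07 for Slc16a3, -2.93 for Slc2a1, -2.48 for Pfkl, -2.19 for Pgk1, -2.16 for Tpi1, -1.58 for Ldha, -1.05 for Eno1, -3.67 for Pdk1, -1.41 for Bnip3, -1.01 for Egln1 and 1.07 for Vegfa. In these metabolic genes all but Vegfa lay below 0, that is, the DNMT_WT change was above the TET_WT change.

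Among imprinted genes the difference was -2.98 for Meg3, -2.61 for Peg10, -2.15 for H19, -1.13 for Plagl1, 1.16 for Igf2 and 1.81 for Cdkn1c. In two-cell-like and germline genes, where every value was above 0, it was 2.87 for Zscan4c, 3.77 for Zscan4d, 1.23 for Zscan4e, 1.20 for Tcstv3, 1.56 for Zfp352, 2.96 for Sycp1, 2.12 for Mael and 3.45 for Dazl. In lineage markers it was -2.06 for T, -2.06 for Eomes, -1.16 for Cdx2, 1.43 for Gsc, 1.38 for Gata3, 1.09 for Gata6, 2.62 for Dab2, 1.31 for Lrp2, -1.41 for Krt18, -2.16 for Nes, 1.24 for Tubb3 and -2.80 for Myl7.

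Among adhesion, cell cycle, stress and other genes it was -1.30 for Esrp1, -1.14 for Epcam, 1.47 for Ccnd2, -1.27 for Pmaip1, -1.11 for Nqo1, 1.41 for Hspb1, -2.38 for Mt1, -1.86 for Mt2, -1.08 for B2m, 1.01 for Cbx8 and 1.61 for mt-Co1. The remaining genes were -5.82 for Trh, -4.20 for Rerg, -3.60 for Cavin1, 4.57 for AA467197, 4.49 for Ddr2, 4.13 for Pramel6, 4.12 for Igfbp7, 3.95 for Platr16, -1.14 for Pim2, 1.07 for Mras, 2.39 for Crxos and 2.64 for Calcoco2.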

How the results depend on the processing

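A reversed direction was counted only for some named genes: those called in the main or the alternative fit, or with limma's adjusted p below 0.05 in the main fit. None of these reversed under any alternative. Of the 163 named genes that passed with line as covariate, 136 passed under every alternative other than leaving out a library. The counts depended on how low values were treated. The genes higher with line as covariate numbered 1902 with a pseudocount of 0.1 RPKM, 2230 with none and 2180 by limma-voom on recovered reads, against 1172, and the lower genes 1508, 1604 and 1640, against 1142. In each line the same settings gave 1257, 1407 and 1454 higher genes, against 758, and 1002, 1030 and 1060 lower genes, against 742; 1099 of the higher genes at a pseudocount of 0.1 were also higher in the knockout lines. The cause was not tested, but a smaller pseudocount shrinks the change of low genes less by construction. A pseudocount of 1 RPKM left 1101 of the 1500 genes called in each line.

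Leaving out each library in turn gave 1157 to 1202 higher and 1094 to 1174 lower genes with line as covariate, 749 to 769 higher and 728 to 757 lower in each line, and 1681 to 1747 whose change differed. Of the 163 genes, 148 passed without any single library. With the replicate number as a block, 1140 genes were higher and 1076 lower with line as covariate, 748 and 735 in each line, and 1722 differed; AA467197, Cavin1, Dazl, Ddr2, Igfbp7, Lefty2, Meg3, Myl7, Nkd2, Vegfa and Zscan4d were then not called with line as covariate. The labels do not say whether libraries with the same replicate number share a culture, and deviations of same-numbered libraries correlated by -0.017 to 0.02. Leaving out chromosome 1, an alternative chosen after seeing the data, gave 1124 and 1050, 726 and 690, and 1585.

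Quantile normalization moved 5 list counts in each line by over 1.5 times, or from or to 0: cardiac rises to 0, fibroblast falls to 1, two-cell-like rises to 1, BMP falls to 1 and glycolysis rises to 4; smaller moves are not given. At 10.1 to 12.7 M reads, genes below 1 RPKM rest on few reads. With a pseudocount of 1 RPKM the changes of 16 named genes called in the main fit were below the size required for a call. They were Gata6, Sox7, Tal1, Dcn, Myh6, Sp8, Cbx8, Cdx2, Dlk1, Nkd2, Pdgfrb, Phf19, Smad6, Tagln, Thy1 and Vegfa. With 2 DNMT_WT ES cell libraries, leaving out 1 leaves a single library assumed to vary like the other groups.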
